A study of Caenorhabditis elegans with 2 samples.

Results

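MicroRNA (miRNA) genes were examined in a ChIP-seq map of a tagged protein in Caenorhabditis elegans larvae. They are all genes of biotype miRNA on the nuclear chromosomes in the Ensembl annotation of WBcel235 (ce11), 261 of 46890 genes. Regions were assigned to a gene when the summit lay within 1000 bp upstream to 200 bp downstream of its annotated start, along its strand. All material came from 1 group, eGFP-R02D3.7 in whole L3 larvae of pooled male and female animals, with 2 biological replicates. Both replicates were of strain OP218, genotype unc-119(ed3) III; wgIs218, in which the integrated transgene wgIs218 carries the product of R02D3.7 (rcat-1 in the annotation) with an eGFP tag. The animals' age is given as unknown, each library was made from a population of animals, and the transgene insertion is a single strain. No control library was among the samples analysed here, so sites of the tagged protein could not be told apart from sites that are listed whatever protein is tagged.

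miRNAs are short RNAs that are cut from hairpins in longer primary transcripts and, bound to an Argonaute protein, pair through their seed with messenger RNAs and repress them. The worm's heterochronic miRNAs of the lin-4 and let-7 families time the larval stages, and the large mir-35, mir-51 and mir-58 families share a seed among their members and can act redundantly. The annotated start of most miRNA genes is the end of the hairpin and not the start of the primary transcript, so a promoter may lie beyond the window used. Several hairpins can also come from 1 primary transcript, or lie in an intron of a protein-coding host gene.

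The mature sequences of the families to which the listed regions belonged are shown first, since the seed is what members of a family share. They were read from the RefSeq annotation of WBcel235, 5′ to 3′, with the seed (bases 2 to 8) in capitals. The mir-51 family carries its seed on the 5p arm of mir-51, mir-52 and mir-53 and on the 3p arm of mir-54, mir-55 and mir-56.
mir-51: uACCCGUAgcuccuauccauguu
mir-52: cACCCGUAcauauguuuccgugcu
mir-53: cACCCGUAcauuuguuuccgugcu
mir-54: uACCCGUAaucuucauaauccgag
mir-55: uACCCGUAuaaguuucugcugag
mir-56: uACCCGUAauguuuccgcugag
In the let-7 family the shared seed lies on the 5p arm.
let-7: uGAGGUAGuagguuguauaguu
mir-48: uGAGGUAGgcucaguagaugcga
mir-84: uGAGGUAGuauguaauauuguaga
mir-241: uGAGGUAGgugcgagaaauga
In the mir-58 family it lies on the 3p arm, and mir-58.1 shares bases 2 to 7 of it with mir-80, mir-81 and mir-82.
mir-58.1: uGAGAUCGuucaguacggcaau
mir-80: uGAGAUCAuuaguugaaagccga
mir-81: uGAGAUCAucgugaaagcuagu
mir-82: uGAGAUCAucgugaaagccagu

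The 200 bp around the summit are shown for 6 of the 13 distinct regions of the irreproducible discovery rate (IDR) list that were the highest in the window of a miRNA gene. They belong to the mir-51, let-7 and mir-58 families and to mir-8186.2, which shares an element with mir-52. They were read from WBcel235 on the strand of the miRNA gene. Capitals mark matches, on either strand, to the repeat GAGAGA, to the element CTGCGTC, or to the shorter element CGTCTC. The last 2 of these overlap in a longer element, and all 3 were picked after counts of short words in these peaks were known.
mir-52, chrIV:14032992-14033191, plus strand: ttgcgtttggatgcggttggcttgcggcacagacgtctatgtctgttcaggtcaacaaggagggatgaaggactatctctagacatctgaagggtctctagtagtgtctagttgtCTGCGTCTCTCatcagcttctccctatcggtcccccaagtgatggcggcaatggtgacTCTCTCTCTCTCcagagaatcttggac
mir-53, chrIV:11027730-11027929, minus strand: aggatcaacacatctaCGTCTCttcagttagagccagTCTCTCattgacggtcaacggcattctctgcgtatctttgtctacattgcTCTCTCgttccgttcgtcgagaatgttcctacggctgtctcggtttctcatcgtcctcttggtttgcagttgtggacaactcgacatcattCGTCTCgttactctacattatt
mir-54, mir-55 and mir-56, chrX:13145248-13145447, minus strand: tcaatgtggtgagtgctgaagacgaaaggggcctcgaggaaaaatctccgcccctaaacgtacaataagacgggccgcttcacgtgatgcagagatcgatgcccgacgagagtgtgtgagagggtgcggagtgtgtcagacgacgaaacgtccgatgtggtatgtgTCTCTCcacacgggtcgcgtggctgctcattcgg
mir-241, chrV:14366640-14366839, minus strand: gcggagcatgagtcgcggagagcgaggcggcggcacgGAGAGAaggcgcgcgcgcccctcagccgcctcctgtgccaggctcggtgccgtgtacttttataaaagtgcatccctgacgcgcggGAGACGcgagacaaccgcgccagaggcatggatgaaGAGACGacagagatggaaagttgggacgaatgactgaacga
mir-80, chrIII:8865468-8865667, minus strand: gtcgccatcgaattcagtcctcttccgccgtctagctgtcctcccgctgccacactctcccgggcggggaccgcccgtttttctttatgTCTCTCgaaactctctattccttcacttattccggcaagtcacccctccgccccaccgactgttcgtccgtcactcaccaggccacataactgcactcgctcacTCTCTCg
mir-8186.2, chrII:18940-19139, minus strand: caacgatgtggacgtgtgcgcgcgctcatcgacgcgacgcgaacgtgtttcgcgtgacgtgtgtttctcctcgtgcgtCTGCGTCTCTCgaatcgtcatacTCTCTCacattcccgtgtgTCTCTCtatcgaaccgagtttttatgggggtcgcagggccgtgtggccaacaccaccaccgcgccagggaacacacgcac

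In the IDR list, 15 miRNA genes (5.75%) had a summit in their window, against 7.33% of protein-coding genes and 4.52% of all nuclear genes. A listed region could rank far apart in the replicates, as that of mir-71 did (892 in replicate 1 and 9021 in replicate 2). Among the nuclear genes are 15363 of biotype piRNA, and without them the share was 6.45% in the IDR list, so that miRNA genes lay above all nuclear genes and below the genes other than piRNA. The highest regions of the 15 genes were 13 distinct regions of the 1584 in that list, because mir-54, mir-55 and mir-56 shared 1, and mir-52 had a second IDR region in its window. In the relaxed list of the pooled replicates, 115 miRNA genes (44.1%) had a summit, on 103 distinct regions, against 38.6% of protein-coding genes and 30.2% of all nuclear genes (38.4% without piRNA genes). In the relaxed list of replicate 1 the count was 108 miRNA genes (41.4%), against 38.2% of protein-coding genes and 30.6% of all nuclear genes. In that of replicate 2 it was 114 miRNA genes (43.7%), against 38.7% of protein-coding genes and 31.4% of all nuclear genes. The share of miRNA genes was thus below that of protein-coding genes in the IDR list and above it in the 3 relaxed lists, and these differences were not tested, since the design holds no control group and neighbouring genes share regions. As a class, miRNA genes stood near the background of protein-coding genes in each list.

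**Figure D1:**
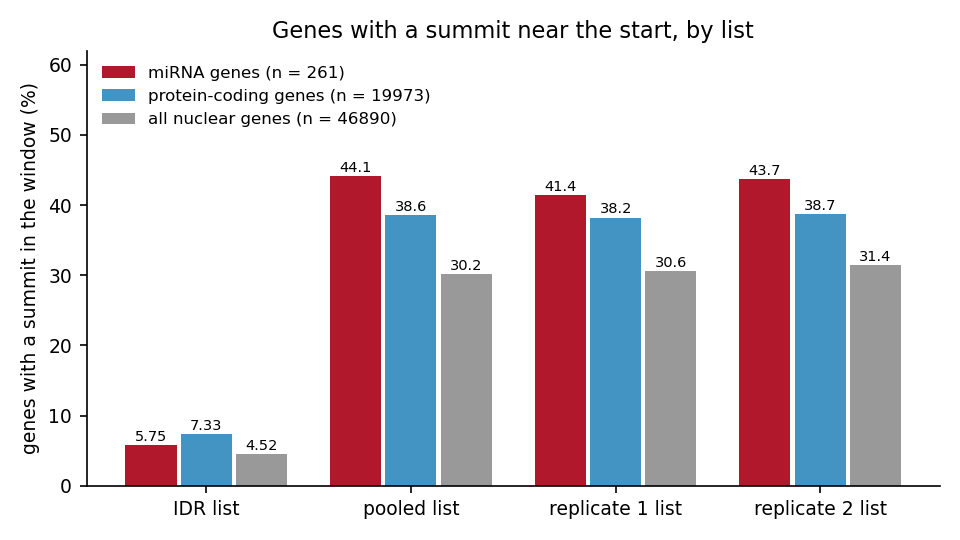
Percentage of genes with a summit in the window (vertical axis) in each of the 4 region lists (horizontal axis), for miRNA genes, protein-coding genes and all nuclear genes. In the IDR list the bars stand at 5.75%, 7.33% and 4.52%, and in the pooled list at 44.1%, 38.6% and 30.2%.

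The signal value of a region is the authors' own and its scale is not given, so it is read only within a list. In the pooled list the median signal at miRNA genes with a summit was 19.2, against 19.5 at protein-coding genes and 18.0 at all nuclear genes. In the IDR list it was 80.0 at miRNA genes, against 98.4 at protein-coding genes and 91.0 at all nuclear genes. The highest value at a miRNA gene was 445.5, while the list reached 4055. The pooled regions of 15 miRNA genes ranked within the IDR list, 30 ranked from 1585 to 5000, 17 from there to 10000, 31 from there to 20000, and 22 lower still. A further 109 of the 261 genes had no summit in any of the 4 lists.

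The largest signals near miRNA genes lay in promoters that also belong to protein-coding genes. At mir-5549 (III, 6971976 to 6972085, minus strand, intergenic) the region had a signal of 445.5 in the pooled list, rank 91, with 222.3 in replicate 1 and 225.2 in replicate 2. Its summit lay 19 bp upstream of the hairpin, in the shared promoter of eef-1A.1, a translation elongation factor, and rfc-4, a subunit of the clamp loader of DNA replication. At mir-2213 (III, 6968870 to 6968924, plus strand, intergenic) the signal was 294.0, rank 156, with 178.2 in replicate 1 and 108.4 in replicate 2. That summit, 418 bp upstream, also lay in the promoters of panl-2, a deadenylase subunit, and F31E3.12. At mir-354 (I, 14468382 to 14468491, minus strand) the signal was 231.0, rank 205, with 100.7 in replicate 1 and 128.9 in replicate 2. mir-354 lies in an exon of the ribosomal protein gene rps-20 on the same strand, and the summit, 856 bp upstream, was in the promoter of rps-20 and of its neighbour ekl-4. At these 3 genes a peak list cannot assign the summit to the miRNA gene or to the coding gene.

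The mir-51 family held 5 of the 9 miRNA genes whose IDR summit lay in no protein-coding promoter window. mir-54 (X, 13144996 to 13145094), mir-55 (13144827 to 13144924) and mir-56 (13144691 to 13144787) form a cluster of 404 bp on the minus strand, within an intron of the opposite-strand gene F09A5.3. Their shared region (X, 13145263 to 13145375) had a signal of 134.1, rank 411, with 65.1 in replicate 1 (rank 497) and 73.1 in replicate 2 (rank 316). Its summit lay 254 bp upstream of mir-54, the first hairpin of the cluster, 424 bp upstream of mir-55 and 561 bp upstream of mir-56. The nearest protein-coding start, that of F09A5.3, was 3747 bp away. The summit thus stood far from any annotated coding promoter, but it also lay in the window of the non-coding RNA (ncRNA) gene F09A5.11. At the intergenic mir-52 (IV, 14034008 to 14034107, plus strand) 2 IDR regions lay in the window, with signals of 80.0 at 916 bp upstream and 73.2 at 110 bp upstream. The upstream region ranked 429 in replicate 1 with a signal of 71.8 and 4077 in replicate 2 with 17.6, where the overlapping summit lay 144 bp away. In replicate 2 the higher region of that window was the one near the hairpin, with a signal of 30.6 and rank 1482. The order of the pair therefore differed between the replicates. The nearest coding start, of Y37A1B.7, was 10688 bp from the upstream summit.

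At mir-53 (IV, 11027593 to 11027691, minus strand, intergenic) the region had a signal of 76.7, rank 869, with 34.0 in replicate 1 (rank 1125) and 43.3 in replicate 2 (rank 778). Its summit lay 139 bp upstream. mir-51 (IV, 11026013 to 11026112) follows mir-53 on the same strand, in a cluster of 1679 bp, and was the single family member without an IDR summit in its window. Its own pooled region had a signal of 10.4, rank 29160, near the end of the list, and no replicate 1 region lay in its window. The mir-53 summit lay 1718 bp upstream of mir-51, outside the window. Counted by seed, 5 of the 6 genes with the seed ACCCGUA had an IDR summit and 6 of 6 a pooled summit. The pooled summits were on 4 distinct regions. The median pooled signal over the 6 genes was 107.0, with the shared region counted at each of mir-54, mir-55 and mir-56. Because mir-54, mir-55 and mir-56 share a region, the 5 genes stand for 3 loci.

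**Figure D2:**
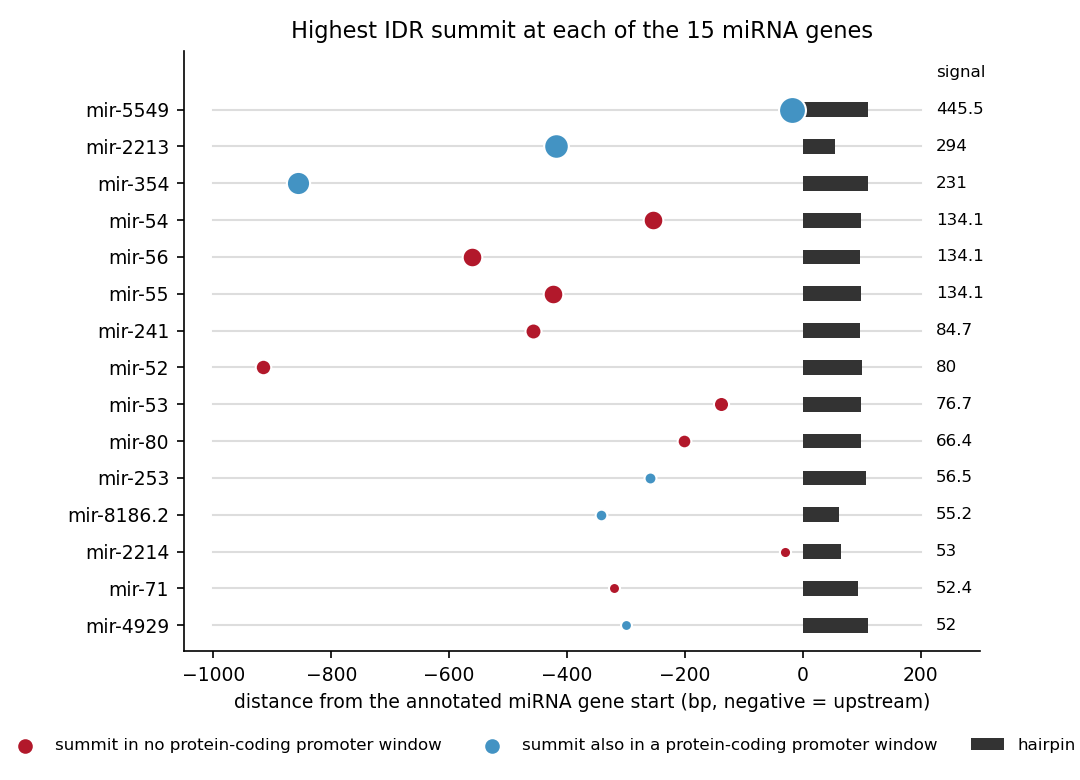
Position of the highest IDR summit (circle, area growing with the log of the signal) relative to the annotated start of each of 15 miRNA genes, in bp along the gene's strand, with the hairpin as a dark bar and the signal at the right. All 15 summits lie upstream, from 19 bp at mir-5549 to 916 bp at mir-52, and the 3 genes of highest signal share the summit with a protein-coding promoter window.

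Of the let-7 family, mir-241 had an IDR summit. mir-241, which acts with mir-48 and mir-84 at the passage to the third larval stage, lies on V (14366188 to 14366283, minus strand, intergenic). Its region had a signal of 84.7, rank 763, with 48.8 in replicate 1 (rank 711) and 36.2 in replicate 2 (rank 1113), and its summit lay 457 bp upstream. The nearest coding start, that of the homeobox gene unc-39, was 6334 bp away, and the summit also lay in the window of the ncRNA gene F56A12.8. mir-48 follows mir-241 on the same strand within 1872 bp and had 4 pooled regions in its window. The highest of them reached 36.0 (rank 2613) at 971 bp upstream, which is below the IDR list's lowest signal of 50.7. mir-84 had a pooled signal of 20.3 (rank 7578), with 11.9 in replicate 1 and 8.30 in replicate 2.

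let-7 itself is annotated from the start of a longer transcript and had a pooled signal of 19.2 (rank 8643), its summit 62 bp downstream of the gene start. An IDR region with a signal of 67.9 lay 1841 bp upstream of let-7, outside the window. mir-793, mir-794 and mir-795 had no pooled summit. mir-793 and mir-794 share bases 2 to 7 of the family's seed and not base 8. Among the 5 genes with the full seed GAGGUAG, 1 had an IDR summit and 4 a pooled summit. The lin-4 family, which shares the seed CCCUGAG, had 0 IDR summits in 2 genes. lin-4, which represses lin-14 and lin-28 early in larval life, lies in an intron of F59G1.4. It had a pooled signal of 38.3 (rank 2380), with 17.6 in replicate 1 and 18.0 in replicate 2. Its summit lay 203 bp upstream, also in the windows of the ncRNA genes F59G1.11 and F59G1.12. The relative of lin-4, mir-237, had 12.6 (rank 21203).

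In the mir-58 family, among the most abundant miRNAs of the worm, mir-80 (III, 8865270 to 8865367, minus strand, intergenic) had an IDR summit 201 bp upstream. The region had a signal of 66.4, rank 1066, with 26.6 in replicate 1 (rank 1509) and 46.4 in replicate 2 (rank 692), and the nearest coding start was 11560 bp away. mir-58.1, in an intron of Y67D8A.2, was the highest miRNA gene outside the IDR list, with a signal of 49.1 (rank 1668) and a summit 312 bp upstream. The mir-58.1 summit also lay in the windows of the ncRNA genes Y67D8A.6 and Y67D8A.7. The lowest miRNA gene inside the list was mir-4929, with a signal of 52.0 (rank 1527), so mir-58.1 missed the IDR list by a narrow margin. mir-82 had a pooled signal of 11.5, while mir-58.2, mir-58c, mir-81 and mir-2209.1 had no pooled summit. Of the 6 genes with the seed GAGAUCA, 1 had an IDR summit and 2 a pooled summit.

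The mir-35 family, which the embryo requires, had the lowest median pooled signal of the families described, 15.1 over its genes with a pooled summit. None of its 8 genes had an IDR summit, and 4 (mir-38 to mir-41) had a pooled summit in the same single region, with a signal of 15.1 and rank 14821. That region lies inside the cluster of 7 hairpins on II, with its summit also in the window of the ncRNA gene Y62F5A.15. The windows of mir-38 to mir-41 held a summit in the replicate 1 list and none in that of replicate 2. mir-1, a muscle miRNA, and lsy-6, which sets the left-right difference between a pair of taste neurons, had no summit in any list. mir-34 had a summit only in replicate 2, with a signal of 8.38. mir-124, a neuronal miRNA in an intron of trpa-1, had a pooled signal of 19.0 (rank 8832), its summit also in the windows of the ncRNA genes C29E6.11 and C29E6.13.

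**Figure D3:**
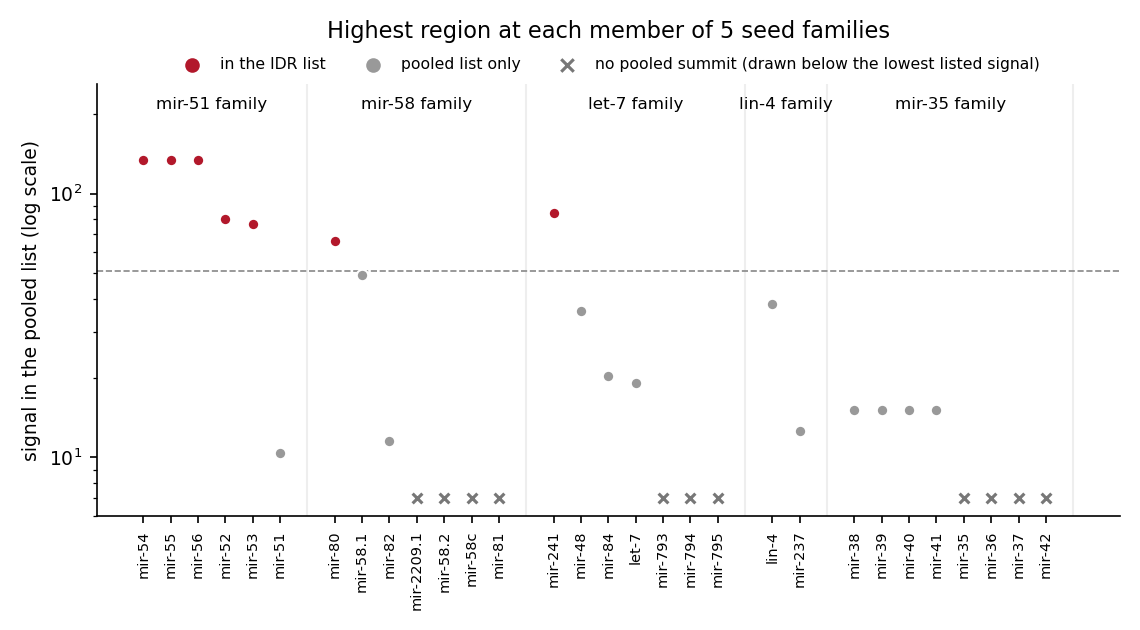
Highest signal in the pooled list (vertical, log scale) at each member of 5 seed families, with mir-58.1, mir-793 and mir-794 placed beside the genes with which they share bases 2 to 7 of the seed. Members with an IDR summit are coloured, the dashed line is the lowest IDR signal of 50.7, and crosses are genes without a pooled summit. 5 of 6 mir-51 family genes lie above the line, 1 gene each of the mir-58 and let-7 families does, and none of the lin-4 and mir-35 families does.

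The remaining IDR summits were close to the list's lower limit. mir-253 (V, 5780510 to 5780616) lies in an intron of F44E7.5 on the same strand, and its summit, 260 bp upstream, fell in the promoter of that host. It had a signal of 56.5 (rank 1348), with 13.0 in replicate 1 (rank 4829) and 38.3 in replicate 2 (rank 991). mir-4929 (II, 13461755 to 13461864) is arranged in the same way in E01G4.3, with 12.4 in replicate 1 (rank 5308) and 40.5 in replicate 2 (rank 879). Both regions thus ranked much higher in replicate 2. mir-71 (I, 9379927 to 9380020), which is known for extending lifespan, lies in an intron of ppfr-1, and its summit 320 bp upstream was 9244 bp from the nearest coding start. That summit also lay in the window of the ncRNA gene F16A11.8. The region of mir-71 had a signal of 52.4 (rank 1505). Here replicate 1, with 40.6 (rank 892), stood far above replicate 2, with 12.4 (rank 9021). mir-8186.2 (II, 18637 to 18697, intergenic) had 55.2 and shared its summit with the promoter of gmeb-1. mir-2214 (III, 7278715 to 7278778, in an intron of B0361.11) had 53.0 with a summit 31 bp upstream, also in the window of the ncRNA gene B0361.13. Both had similar ranks in the replicates, with 1543 in replicate 1 and 2187 in replicate 2 for mir-8186.2, and 1640 in replicate 1 and 1873 in replicate 2 for mir-2214.

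Just below the IDR list, mir-64, mir-65, mir-66 and mir-229, in an intron of gcn-1, shared 1 pooled region of signal 48.1 (rank 1714). Its summit lay 270 bp upstream of mir-229, the first of that cluster. Of the other high genes outside the IDR list, mir-5595 had 45.5 and lay in the promoter of nurf-1, mir-4932 had 43.9 in the promoter shared by smn-1 and klp-16, and mir-4936 had 39.8 in that of nduf-9. mir-8209 had 45.2, mir-79 had 44.3, mir-2 had 38.8, and mir-239.1 and mir-239.2 shared a region of 36.2, all without a coding start in range. Starts of ncRNA genes were in range at mir-79 (C12C8.8), at mir-2 (F16A11.5) and at the mir-239.1 and mir-239.2 region (C34E11.9). A small nucleolar RNA gene, C34E11.20, was also in range of the last. mir-47 had 43.5 and showed the widest split of this group between the replicates, since its region ranked 17802 in replicate 1 and 724 in replicate 2.

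The replicates were compared over the regions near miRNA genes. All 13 IDR regions that were the highest of a miRNA gene had an overlapping region in both replicate lists. The Spearman correlation of their signals was 0.489 over these 13 regions, against 0.633 over the 1571 IDR peaks found in both lists. Over the 62 distinct pooled regions present in both lists it was 0.519. These are descriptions across regions, which are not independent replicates, and the lists share a control alignment. Of the 261 genes, 73 had a summit in both replicate lists, 35 in replicate 1 only and 41 in replicate 2 only. The same split was not counted over protein-coding or all nuclear genes, so it cannot be read as a trait of miRNA genes. Among as many of the highest regions of replicate 2 as the IDR list holds, 15 miRNA genes had a summit and 12 of these were the same genes, and among those of replicate 1 it was 20 genes, 12 of them the same. The genes lost without replicate 1 were mir-71, mir-8186.2 and mir-2214, and those lost without replicate 2 were mir-253, mir-4929 and mir-2214.

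**Figure D4:**
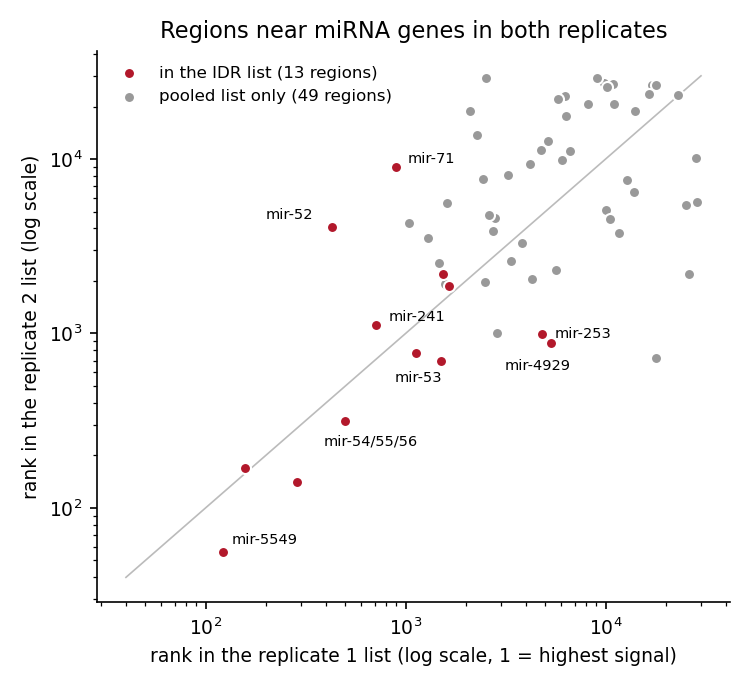
Rank by signal in the replicate 1 list (horizontal, log scale) and the replicate 2 list (vertical, log scale) of the 62 distinct regions near miRNA genes found in both, with the line of equal rank. The regions of mir-5549 and of mir-54, mir-55 and mir-56 lie near the line, while mir-52 and mir-71 ranked higher in replicate 1 and mir-253 and mir-4929 higher in replicate 2.

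By position, 152 miRNA genes were intergenic, 74 lay inside a protein-coding gene on the same strand, 32 inside one on the opposite strand and 3 overlapped one in part. IDR summits were found at 7 intergenic genes (4.61%), at 5 in a same-strand host (6.76%) and at 3 in an opposite-strand host (9.38%), the last being mir-54, mir-55 and mir-56 with their single region. In the pooled list the counts were 60 (39.5%) for intergenic genes, 38 (51.4%) for same-strand hosts and 15 (46.9%) for opposite-strand hosts. The summit also lay in a protein-coding promoter window at 6 of the 15 genes with an IDR summit and at 35 of the 115 with a pooled summit. The share of all listed regions in such a window was not counted, so these counts cannot be read as many or few. Of the 60 intergenic genes with a pooled summit, 20 were among the 35. For genes with a shared promoter the list cannot tell the promoter of the miRNA gene from that of the coding gene. Nor can it assign a summit that also lay in the window of an ncRNA gene. Among genes with an IDR summit in no coding promoter, these were mir-52, mir-54, mir-55, mir-56, mir-71, mir-241 and mir-2214.

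All 15 IDR summits lay upstream of the miRNA gene start, with a median of 320 bp, against 96.2% upstream and a median of 231 bp at protein-coding genes. In the pooled list 86.1% of summits lay upstream at miRNA genes, with a median of 277 bp, against 86.5% and 261 bp at protein-coding genes. The window itself extends 1000 bp upstream and 200 bp downstream, so most summits would lie upstream whatever the gene. Of the pooled summits, 48.7% lay within 400 bp upstream at miRNA genes, against 50.4% at protein-coding genes.

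Along the chromosomes, chromosome III had the highest share of miRNA genes with a pooled summit, 22 of 27 (81.5%), against 53% of protein-coding genes there, which was also the highest share among chromosomes. Chromosome V had the lowest, 8 of 28 (28.6%), the same as the 28.6% of protein-coding genes on V. In the IDR list the counts ran from 4 of 27 (14.8%) on III, against 11.3% of protein-coding genes there, to 2 of 50 (4%) on IV, against 7.16%, and 3 of 74 (4.05%) on X, against 3.95%. On X the 3 genes were the mir-54 cluster, a single region. Clustered genes, those within 10000 bp of another miRNA gene start on the same strand, had an IDR summit in 7 of 81 cases (8.64%) and lone genes in 8 of 180 (4.44%). Of these 7 genes, 3 were mir-54, mir-55 and mir-56 with their single region, so the genes are not separate cases. In the pooled list the shares were 43.2% of clustered genes and 44.4% of lone genes. Genes that share a seed with another had an IDR summit in 9 of 109 cases (8.26%), and genes with a seed of their own in 6 of 151 (3.97%). Of the 9, 5 belonged to the mir-51 family, in which mir-54, mir-55 and mir-56 share a single region. Another was mir-8186.2, which shares its seeds only with mir-8186.1, annotated at nearly the same position on the other strand. The 9 genes are therefore not separate cases.

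Short sequence elements were counted within the 200 bp around each summit on both strands. Each miRNA gene was represented by its highest region, which leaves out the second IDR region of mir-52. GAGAGA was present at 10 of these 13 IDR regions (76.9%), against 39.2% of all 1584 IDR peaks, 15.9% of pooled regions outside the IDR list and 10.9% of windows 500 bp to either side of IDR peaks. With the second region of mir-52 included, a choice made after seeing the data, the count was 11 of 14 (78.6%). The 3 regions without GAGAGA were those of mir-354, mir-2213 and mir-2214. CGTCTC was present at 5 of 13 (38.5%), against 28.7% of all IDR peaks, and CTGCGTC at 2 of 13 (15.4%), against 18.0% of all IDR peaks. CTGCGTC occurred at mir-52 and mir-8186.2, in both cases joined to CGTCTC and to a GAGAGA match on the other strand, as the capitals in the printed windows show. With overlapping matches counted separately, the window of mir-52 held 5 matches to GAGAGA and that of mir-253 held 4. At the 90 other pooled regions near miRNA genes, GAGAGA was found in 22.2%, CGTCTC in 13.3% and CTGCGTC in 7.78%. The median GC content was 51.5% at the 13 regions, against 43.0% over all IDR peaks and 36.5% in the windows beside them, and the part of base composition in the match counts was not tested.

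**Figure D5:**
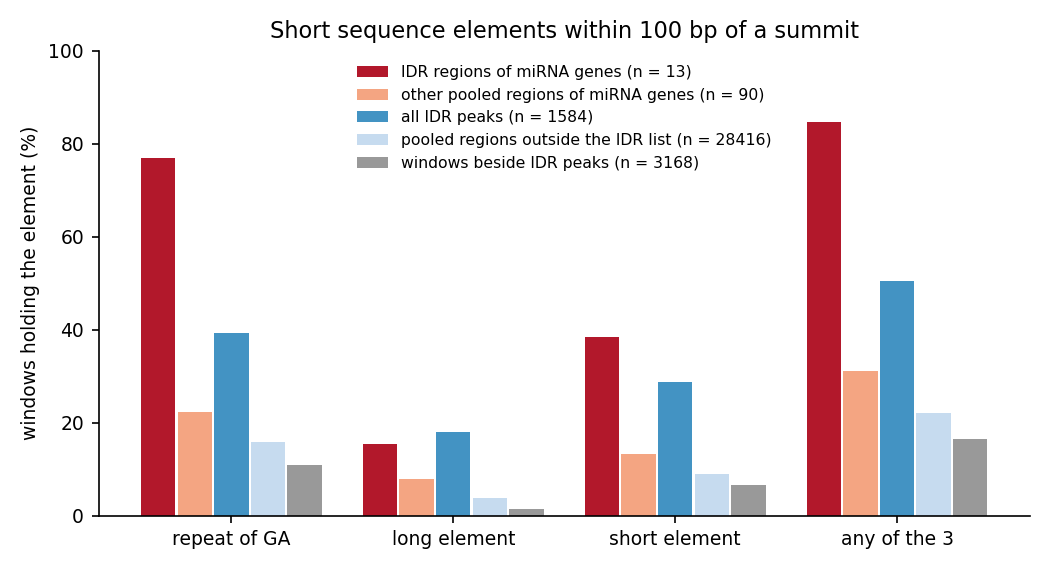
Percentage of 200 bp windows (vertical axis) that hold GAGAGA (repeat of GA), CTGCGTC (long element), CGTCTC (short element) or any of the 3, on either strand, for 5 sets of windows. At the highest IDR regions of miRNA genes 76.9% held the repeat of GA, against 39.2% of all IDR peaks, with 13 windows in the miRNA set.

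Genes for the proteins that make miRNAs and act with them were read from a list chosen with results of these data known, so its shares are a description and no evidence about the pathway. Of 25 such genes, 24 were matched in the annotation by name. An IDR summit was present at 9 of them (37.5%), against 7.33% of protein-coding genes, and a pooled summit at 20 (83.3%), against 38.6% of protein-coding genes. In hairpin processing, pash-1, the partner of Drosha, had an IDR summit with a signal of 76.7 (rank 866, 42.7 in replicate 1 and 23.7 in replicate 2), 85 bp upstream. drsh-1, Drosha itself, had a pooled signal of 32.6, and dcr-1, Dicer, had no summit in any list.

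Among the Argonautes that bind miRNAs, alg-5 had a signal of 127.8 (rank 441) in a promoter window it shares with the histone genes his-67 and his-68, alg-1 had a pooled signal of 12.2, and alg-2 had no summit. Of their GW182-type partners, ain-1 had 124.5 (rank 454, 71.2 in replicate 1 and 59.9 in replicate 2) and ain-2 had a pooled signal of 16.0. nhl-2, a TRIM-NHL cofactor of the silencing complex, had 367.7 (rank 118), in a window that also holds the start of tag-340. vig-1, a component of the complex, had 264.0 (rank 173, 137.6 in replicate 1 and 127.2 in replicate 2). ifet-1, a repressor of translation, had 416.8 (rank 101), in the promoter shared with the ribosomal protein gene rps-1. The helicase gene cgh-1 had 90.2, hrpk-1, encoding an hnRNP K, had 108.0, and ccf-1, a deadenylase subunit, had 51.0, close to the lower limit of the IDR list.

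Of the genes tied to let-7, lin-28 had a pooled signal of 44.6 at its gene start and an IDR summit only at another of its transcript starts, and lin-41, a target of let-7, had a pooled signal of 22.2. Thus within the same pathway some genes stood among the leading regions of the list and others, such as dcr-1, alg-2 and paxt-1, had none.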

How the data were processed

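ChIP-seq regions of both replicates were taken from 4 lists on ce11, per the labels and the list of files deposited with the samples. They are a relaxed list per replicate and one for the pooled replicates, each made from an alignment and a control alignment that both replicates share, and an optimal IDR list of 1584 regions. The signal value per region and its −log10 q-value were deposited by the authors. The caller, the IDR threshold, the aligner and the signal's scale were not given in the sources used here. Depth per sample is unknown, and no interval for counting error could be given. The size range in the labels is 150 to 350 bp. Lists on ce10 were not used, and no column of per-sample values was left out.

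Summits were the region start plus the deposited offset. Regions were ranked by signal within a list, and the highest region in a window stood for the gene. Genes came from Ensembl release 115, names and mature arms from RefSeq. A host was a protein-coding gene whose span holds the whole miRNA gene, and a shared promoter was the same window around a protein-coding transcript start. The assignment was checked on simulated summits. No test was made, since 1 group has no contrast, and counts stand beside their background. The labels do not say whether the biological replicates were separate cultures. Members, gene lists and motifs were chosen with earlier results of these data known. The text names every miRNA gene with an IDR summit, the 15 others of highest pooled signal, 5 seed families, some well known miRNA genes and pathway genes with a summit, and genes beyond that rule (drawn from lost or wider-window calls) were named after their values were seen. Python 3.11.15, numpy 2.4.6 and pandas 2.3.3 were used.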

Additional observations from a re-analysis of the deposited data

How the results depend on the processing

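Of 30 alternative settings of the counts, 23 stayed within 1.5 times the reported count and 7 did not. With a window of 2000 bp upstream to 500 bp downstream, the IDR count was 28 in place of 15 miRNA genes, adding let-7 and mir-51 among others, and the both-replicate count was 122 in place of 73. With 500 bp upstream to 100 bp downstream the both-replicate count was 44. Counting only summits in no protein-coding promoter window left 9 genes with an IDR summit, and the higher-signal 50% of the IDR list left 7. The higher-signal 50% of the replicate 2 list left 62 in place of 114. Of 8 genes with an IDR summit inside a host, 5 were in a same-strand host. Leaving out 1 replicate gave 15 to 20 genes in place of the 15 in the IDR list. A wider window and the whole list admit more regions by construction, and the smaller host count follows from leaving out the 3 opposite-strand genes. The cause of the change without a replicate was not tested. No paired analysis was possible because there is 1 group. Without read depth or a control library, a missing summit says only that no region was listed, and the annotated hairpin start limits which promoters the window can reach.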

Other observations

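Beyond the window of the main count, some IDR summits lay near miRNA loci that the opening count leaves out. The region of signal 76.7 that ranks 869 had its summit 139 bp upstream of mir-53 and 1718 bp upstream of mir-51. The region of the pash-1 promoter, also of signal 76.7 but rank 866, lay 1875 bp upstream of mir-1828. mir-1819 and mir-2212 shared a region of signal 78.5, at 1950 bp upstream of mir-1819 and 1824 bp upstream of mir-2212. The largest signal in the wider window, 907.7 (rank 29), lay 1797 bp upstream of mir-2216, which lies in an intron of gmps-1 on the same strand. Whether the summits near mir-2216, mir-1819 and mir-2212 also lay in a coding promoter was not examined. With the wider window 10.7% of miRNA genes had an IDR summit, against 9.41% of protein-coding genes. These genes were named after their values were seen.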
